A study of Homo sapiens with 16 samples.

Results

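The clustered protocadherin genes were read by 58 of the 54675 probe sets of the array, chosen because every gene symbol that the platform annotation gives them starts with PCDHA, PCDHB or PCDHG. These 58 probe sets read 50 genes of chromosome 5, with 13 probe sets for the alpha cluster, 25 for the beta cluster and 20 for the gamma cluster. A single gene was named for 48 probe sets and several genes for 10, among them 3 that the annotation gives to all 15 alpha genes together. The choice of members used gene names and no measured value. RefSeq lists 59 clustered protocadherin genes, of which 36 had a probe set of their own and 14 were read only through a shared one.

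Clustered protocadherins are cadherin-type adhesion molecules of the cell surface, best known from neurons, where each cell makes its own combination and uses it to tell its own branches from those of other cells. In the alpha and gamma clusters each gene has its own promoter and its own first exon, which is spliced to exons common to the whole cluster. The beta genes have no common exons, and each is a gene of a single coding exon. Most of these promoters carry a conserved sequence element that the insulator protein CTCF binds, and DNA methylation of the promoter goes with a silent gene. Methylation across the clusters is known from several tumour types.

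HCT116 and RKO are established human colon cancer cell lines. The series holds 16 arrays (Affymetrix Human Genome U133 Plus) of total RNA, 8 for each line, taken after 3 days with PJ-34, 5-aza-dC or TSA, with each pair of the 3 drugs, with all 3 together, or as the control. PJ-34 inhibits poly(ADP-ribose) polymerases, 5-aza-dC (5-aza-2′-deoxycytidine) inhibits DNA methyltransferases, and TSA (trichostatin A) inhibits histone deacetylases. Each condition of each line has 1 array, so a drug was tested over the 4 arrays with it against the 4 without it, and the lines over 8 arrays against 8. The methods of the study give a lower dose of PJ-34 for RKO than for HCT116, while its results give the same dose for both.

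Values are signals, the linear intensity of a probe set, which had been scaled to a common level (trimmed means of 1000.1 to 1000.2 over the arrays). Between 21.9% and 27.3% of all probe sets read under 50 on an array, and signals that low were set to 50 for the tests. The arrays correlated at r = 0.933 to 0.964 within HCT116, 0.945 to 0.968 within RKO and 0.868 to 0.901 between the lines (log2 signals over all probe sets). Of 13 markers of colon epithelium 11 were tested, and 8 were higher and 0 lower in HCT116 (adjusted p under 0.05, limma). Of all probe sets tested, 21.3% were higher and 23% lower in HCT116. CDH1 (E-cadherin) read 5297 to 10572 in HCT116 and 3.90 to 117 in RKO. The keratin gene KRT19 read 37031 to 69816 in HCT116 and 4.95 to 18.2 in RKO. EPCAM and KRT18 were lower in RKO but still bright there, at 3544 to 4139 and 14319 to 16263. VIL1, CDX2 and LGALS4 did not pass (log2 differences, HCT116 minus RKO, of 0.02, 0.11 and 0.46). The summed signal of the 13 colon epithelium markers was 173759 to 262193 in HCT116 and 19527 to 21523 in RKO.

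The array labelled PJ-34 and the array labelled PJ-34/5-aza-dC of RKO went against their labels. Over 102 probe sets that were dim in the RKO control and had risen with 5-aza-dC in HCT116, the median log2 signal over the control was 1.33 on the array labelled PJ-34 and 0 on the array labelled PJ-34/5-aza-dC. It was 1.03 to 1.52 on the 3 other RKO arrays labelled with 5-aza-dC and 0 on those labelled TSA and PJ-34/TSA. Test calls of members in RKO, and RKO log2 differences of single genes under a drug, are therefore given with and without this pair of arrays. A gene that then no longer passed the filter has no second value. RKO counts of members without overlap and of reactivation are given by the labels alone.

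Short promoter sequences are shown first because the members share them and because the genes that differed most between the lines can be compared in them. RefSeq promoter windows (GRCh38.p14, plus strand, 250 bases before to 50 bases after the gene start) were found for 47 of the genes. The letters GGTGGCGCT, or their reverse complement, occur in 13 of the 14 beta promoters, in 0 of the other 33 and in 0.501% of the 35116 promoters of the table. In the 13 beta promoters they start 2 to 84 bases before the gene start, with a median of 66. These are the stretches around them, with the shared letters in capitals, for the 7 beta genes whose own probe set read at least 250 on all 8 RKO arrays and then for 3 without such a probe set:
PCDHB2, chr5:141094540-141094578: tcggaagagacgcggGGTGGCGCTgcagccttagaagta
PCDHB3, chr5:141100389-141100427: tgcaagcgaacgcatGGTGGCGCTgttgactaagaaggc
PCDHB7, chr5:141172562-141172600: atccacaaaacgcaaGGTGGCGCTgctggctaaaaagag
PCDHB8, chr5:141177773-141177811: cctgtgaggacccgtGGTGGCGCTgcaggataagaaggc
PCDHB16, chr5:141182306-141182344: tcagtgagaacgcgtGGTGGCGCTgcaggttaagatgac
PCDHB13, chr5:141213861-141213899: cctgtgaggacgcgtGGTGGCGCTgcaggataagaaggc
PCDHB14, chr5:141223259-141223297: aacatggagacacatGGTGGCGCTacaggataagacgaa
PCDHB4, chr5:141121719-141121757: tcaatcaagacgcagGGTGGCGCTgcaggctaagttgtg
PCDHB5, chr5:141135175-141135213: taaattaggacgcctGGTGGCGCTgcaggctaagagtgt
PCDHB15, chr5:141245310-141245348: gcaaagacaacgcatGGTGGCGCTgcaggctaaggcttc

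Alpha and gamma promoters hold other letters that share the core CGCT with the beta ones. GATGTCGCT or its reverse complement occurs in 9 of 13 alpha promoters, in 0 of the other 34 and in 0.105% of all promoters. GCGCCGCT or its reverse complement occurs in 10 of 20 gamma promoters, in 0 of the other 27 and in 3.17% of all promoters. CGCT or AGCG occurs in 46 of the 47 protocadherin promoters and in 70% of all promoters, so the short core alone sets them apart far less than the longer runs. All 3 runs were picked by looking at these promoters, and a match is a description of the letters only. Examples from both clusters, with the run in capitals, are:
PCDHA1, chr5:140786082-140786120: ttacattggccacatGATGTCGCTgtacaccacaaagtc
PCDHA6, chr5:140827893-140827931: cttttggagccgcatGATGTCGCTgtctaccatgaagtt
PCDHA10, chr5:140855837-140855875: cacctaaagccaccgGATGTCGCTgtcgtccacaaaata
PCDHGA1, chr5:141330400-141330437: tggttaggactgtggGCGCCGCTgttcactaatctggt
PCDHGA10, chr5:141412928-141412965: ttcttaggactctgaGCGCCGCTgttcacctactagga
PCDHGB5, chr5:141397860-141397897: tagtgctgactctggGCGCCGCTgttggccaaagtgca

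PCDHB1 is the beta gene without the run among the 14 with a window. It holds the letters ggtggtgct, which have T in place of the first C of the run. Its promoter is shown whole beside that of PCDHB7, the gene with the smallest p between the lines, each over the 250 bases before the gene start and with the run in capitals where it occurs. CpG sites, where DNA methylation falls, are few in both: each 300-base window holds 6.
PCDHB1, chr5:141051124-141051373: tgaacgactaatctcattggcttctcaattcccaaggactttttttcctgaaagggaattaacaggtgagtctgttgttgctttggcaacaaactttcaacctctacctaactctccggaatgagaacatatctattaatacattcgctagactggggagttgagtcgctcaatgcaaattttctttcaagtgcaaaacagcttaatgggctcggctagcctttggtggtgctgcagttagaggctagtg
PCDHB7, chr5:141172394-141172643: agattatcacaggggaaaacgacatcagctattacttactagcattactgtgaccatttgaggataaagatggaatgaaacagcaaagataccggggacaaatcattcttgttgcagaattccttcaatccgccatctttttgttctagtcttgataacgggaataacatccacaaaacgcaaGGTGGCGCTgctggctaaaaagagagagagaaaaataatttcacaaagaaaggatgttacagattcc

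The beta promoters hold 5 to 12 CpG sites (median 7.5), the 11 alpha promoters outside the C-type genes 3 to 9 (median 7) and the 18 such gamma promoters 2 to 16 (median 6.5). C-type genes are the last genes of the alpha and gamma clusters, whose promoters differ from the rest, and the 4 with a window hold 15 to 27 CpG sites (median 20.5) and none of the runs. Over all promoters of the table the median is 14, with quartiles at 4 and 28.

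No beta probe set reached 250 on any HCT116 array, and the highest HCT116 signal was 239, while in RKO 13 of 25 reached 250 on some array and 8 did so on all 8 arrays. A signal of at least 250 on all 8 arrays was held by 34.4% of all probe sets in HCT116 and by 35% in RKO, so the 8 of 25 in RKO are near the share of the array and the 0 of 25 in HCT116 are below it. The other 12 beta probe sets stayed under 250 on every RKO array. The summed beta signal was 1200 to 1947 (median 1493) over the HCT116 arrays and 6925 to 9199 (median 8483) over the RKO arrays, so the sums do not overlap.

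**Figure D1:**
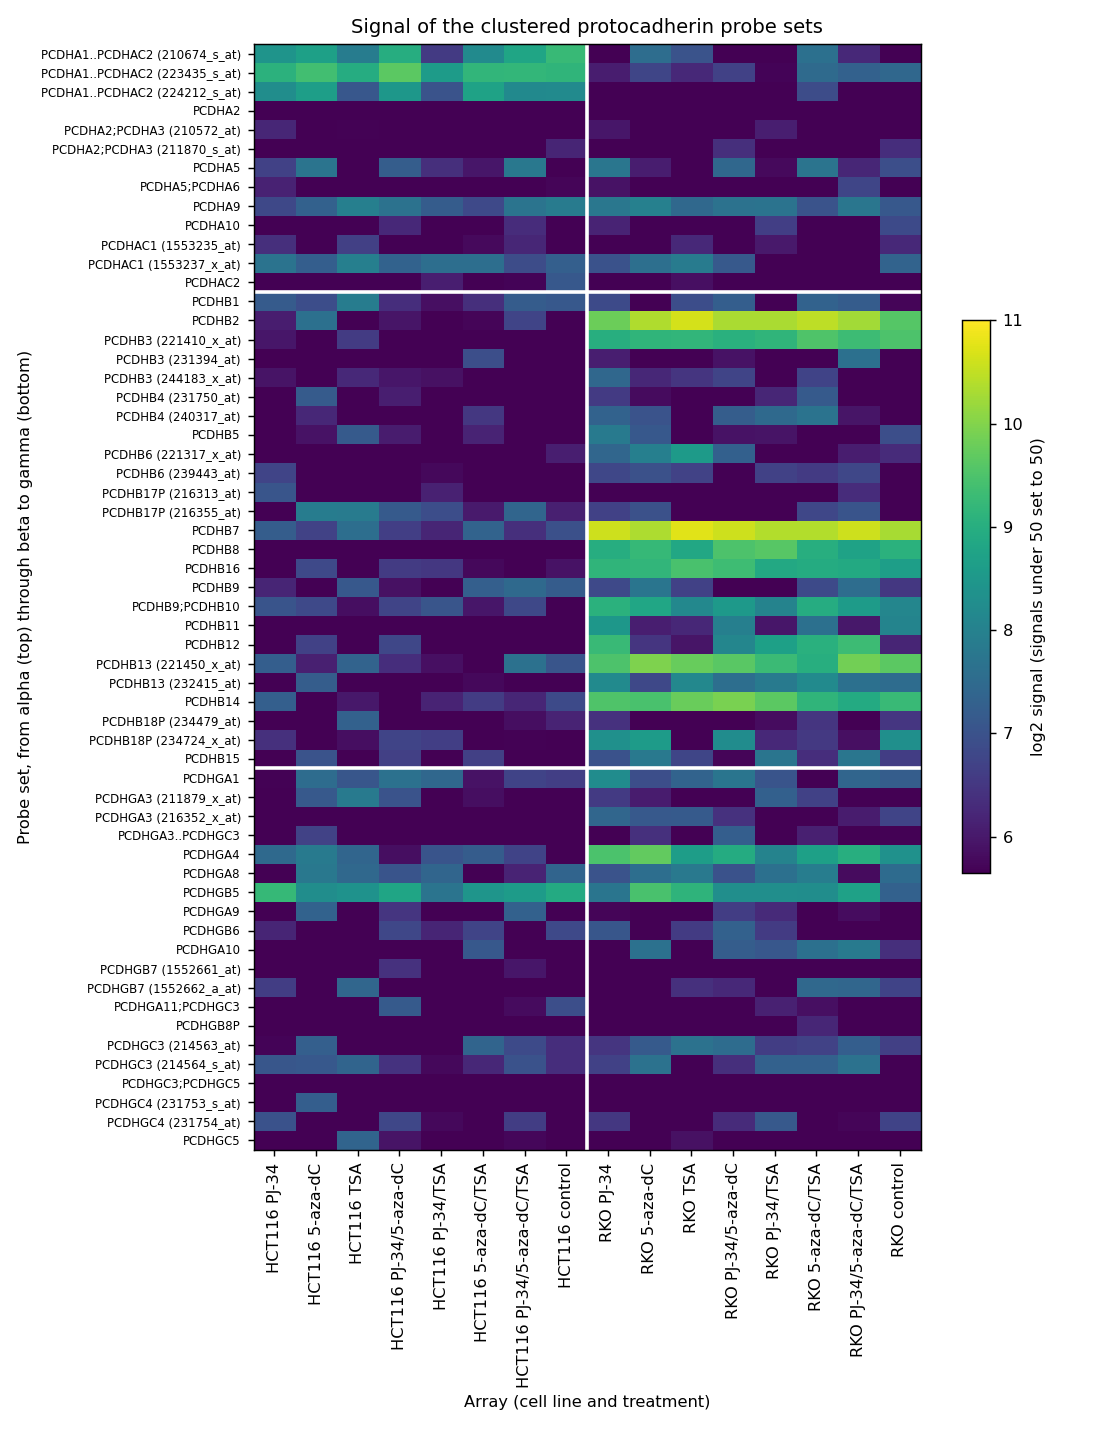
Signal of the 58 clustered protocadherin probe sets (rows, from alpha at the top to gamma at the bottom) on the 8 HCT116 arrays and the 8 RKO arrays (columns), as log2 signal with signals under 50 set to 50. In the RKO columns 8 of the 25 beta rows read at least 250 on all 8 arrays and 12 never do, in the HCT116 columns none does, and the 3 rows of the shared alpha probe sets are bright in the HCT116 columns.

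PCDHB7 encodes a beta protocadherin of the cell surface, as do the beta genes that follow. Its signal was 73.9 to 191 (median 114) on the HCT116 arrays and 1255 to 1746 (median 1440) on the RKO arrays. Every RKO array was brighter than every HCT116 array. The difference, as HCT116 minus RKO on the log2 scale, was -3.62 (SE 0.195, adjusted p = 2.11e-11, limma), with means of 123 ± 41.3 in HCT116 and 1454 ± 168 in RKO (SD, n = 8 arrays of different treatments each). PCDHB2 read 17.7 to 197 (median 57.4) in HCT116 and 774 to 1612 (median 1282) in RKO, again without overlap, and its log2 difference was -4.09 (SE 0.257, adjusted p = 1.88e-10). HCT116 signals under 50 count as 50 in these differences, so their order among the genes depends on that floor. Of the 18 members lower in HCT116, 14 had fewer than 4 HCT116 arrays at 100 or more (PCDHB2, PCDHB3, PCDHB8, PCDHB14 and PCDHB16 among them). These entered the test through RKO, where they are high, so their log2 differences and p-values are descriptions. In the fit with no filter, which tests all 58 members, 11 of the 14 passed, and PCDHB4, 1 probe set of PCDHB6 and PCDHB15 did not.

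PCDHB3, PCDHB8, PCDHB14 and PCDHB16 followed. PCDHB3, by the probe set 221410_x_at, read at most 94.7 (median 33.1) in HCT116 and 515 to 736 in RKO, a log2 difference of -3.43 (SE 0.234, adjusted p = 6.37e-10). PCDHB8 read 5.08 to 48.9 in HCT116, under the floor of 50 on all 8 arrays, and 422 to 781 in RKO, so that it was at least 11.1-fold higher in RKO. PCDHB14 read 2.59 to 154 in HCT116 and 486 to 967 in RKO (log2 difference -3.16, SE 0.266, adjusted p = 1.12e-08). PCDHB16 read 6.63 to 114 in HCT116 and 400 to 710 in RKO (7.97-fold lower in HCT116, adjusted p = 2.36e-08). In each of these 4 genes the lines did not overlap.

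PCDHB13 was read by a pair of probe sets, and both were lower in HCT116. The probe set 221450_x_at read 32.7 to 200.3 in HCT116 and 509 to 999 in RKO (log2 difference -2.92, SE 0.302, adjusted p = 1.84e-07), and 232415_at read 3.10 to 149 in HCT116 and 112 to 294 in RKO (log2 difference -1.88, SE 0.294, adjusted p = 3.02e-05). The lines overlapped in 232415_at alone, through the HCT116 array with 5-aza-dC alone. The probe set shared by PCDHB9 and PCDHB10 read 8.56 at the lowest (median 110) in HCT116 and 263 to 536 in RKO (log2 difference -2.04, SE 0.261, adjusted p = 2.73e-06), while the probe set of PCDHB9 alone read 19.0 to 178 in HCT116 and 18.4 to 212 in RKO (log2 difference -0.12, SE 0.379, adjusted p = 0.831).

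The remaining calls in the beta cluster were smaller. PCDHB12 (log2 difference -1.96), PCDHB11 (-1.41), the pseudogene PCDHB18P (-1.20, by 234724_x_at), 1 of the probe sets of PCDHB6 (-1.16, by 221317_x_at), PCDHB4 (-0.92, by 240317_at) and PCDHB15 (-0.89) were all lower in HCT116, with adjusted p of 2.28e-04 to 0.0440. PCDHB11 was under 50 on all HCT116 arrays, so its fold in RKO is a lower bound. PCDHB4 lost its call in 14 of 23 alternative settings and PCDHB15 in 15 of 24. Tested beta probe sets that did not pass were PCDHB1 (log2 difference 0.29, 95% interval -0.47 to 1.06), PCDHB5 (-0.35, -1.01 to 0.32), PCDHB17P (0.62, -0.20 to 1.44), PCDHB9 and the other probe set of PCDHB6 (-0.68, -1.31 to -0.04, adjusted p = 0.0791).

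**Figure D2:**
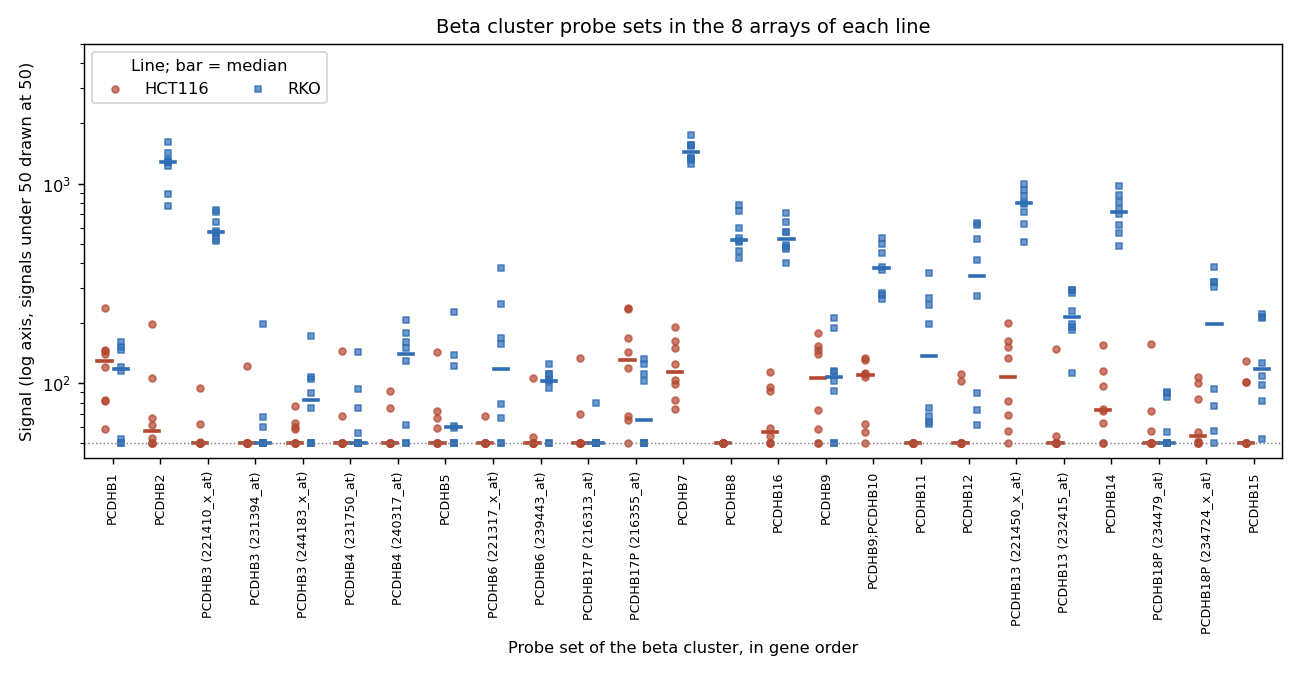
Signal (log axis, signals under 50 drawn at 50) of the 25 beta probe sets in gene order, with the 8 HCT116 arrays as circles, the 8 RKO arrays as squares and a bar at each median. PCDHB2, PCDHB7 and PCDHB14 sit apart by line, while PCDHB1 and PCDHB9 overlap.

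In all, 15 of the 25 beta probe sets were lower in HCT116 and none was higher, against 23% of all probe sets lower and 21.3% higher in HCT116 (44.3% in either direction, 42119 tested, adjusted p under 0.05). The median log2 difference of the 20 beta probe sets tested was -1.65, and that of all probe sets -0.01. Since a beta probe set could pass the filter on low signals through RKO alone, this count and median are descriptions. Over all members, without a filter, 9 of 25 beta probe sets read higher on every RKO array than on any HCT116 array, against 7.59% of the array. Genes with probe sets on both sides (PCDHB3, PCDHB4, PCDHB6) show that a low reading of 1 probe set does not settle the gene: the 2 other probe sets of PCDHB3 read 6.66 to 122 in HCT116 and 6.42 to 198 in RKO. The 7 beta genes with a probe set of their own at 250 or more on all RKO arrays all hold GGTGGCGCT in the promoter window, with 6 to 12 CpG sites. PCDHB9 and PCDHB10, whose shared probe set was as bright, both hold it, with 5 CpG sites each, and 4 of the 5 other beta genes with a window hold it, with 6 to 12.

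Leaving out both RKO arrays that went against their labels kept 16 of the 21 line calls of the members, all in the same direction, and the log2 difference was -3.53 for PCDHB7 and -4.01 for PCDHB2. The other 5 (PCDHB4, PCDHB6, PCDHB11, PCDHB18P and PCDHGA3) then no longer passed the filter. Probe sets ending in _x_at, whose probes can match several related genes, make up 15 of the 58 members, and without them 13 calls were left, 3 higher and 10 lower in HCT116. In RNA of whole cultures, fewer cells expressing a gene and less RNA per cell cannot be told apart. Each line is a single line and the labels do not say whether its arrays came from separate cultures, so the p-values measure the spread over its arrays, and culture and line cannot be told apart.

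The alpha cluster went the other way, in the probe sets that read all of its genes at once. The probe set 223435_s_at read 386 to 807 (median 571) in HCT116 and 51.5 to 182 (median 105) in RKO, without overlap. The log2 difference was 2.44 (SE 0.247, adjusted p = 1.40e-07), with means of 579 ± 122 in HCT116 and 115 ± 50.2 in RKO (SD, n = 8 each). The probe set 224212_s_at read 128 to 423 (median 302) in HCT116 and 6.66 to 118 (median 17.6) in RKO (log2 difference 2.28, SE 0.278, adjusted p = 1.57e-06). These 2 probe sets are the members that read higher on every HCT116 array than on any RKO array, as 7.62% of all probe sets did. The probe set 210674_s_at read 94.5 to 607 (median 376) in HCT116 and 28.3 to 196 (median 63.7) in RKO (log2 difference 1.97, SE 0.306, adjusted p = 2.80e-05), and here the lines overlapped. The probe sets 224212_s_at and 210674_s_at had 1 and 3 RKO arrays at 100 or more and entered the test through HCT116, where they are high. Their log2 differences and p-values are therefore descriptions, and both kept their calls in all 25 alternative settings.

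These 3 were the only alpha probe sets past the test, of 6 tested and 13 in all, against 21.3% of all probe sets tested that were higher in HCT116. The annotation gives all 3 to the same 15 genes, so they are not 3 separate results. No probe set of a single alpha gene passed the test. PCDHA9 read 111 to 249 in HCT116 and 128 to 253 in RKO (log2 difference -0.13, 95% interval -0.70 to 0.44), and PCDHA5 read 48.0 to 220.3 in HCT116 and 37.7 to 214 in RKO (-0.06, -0.83 to 0.72). The C-type gene PCDHAC1 read 119 to 248 in HCT116 and 14.1 to 235 in RKO by 1553237_x_at (0.71, SE 0.306, adjusted p = 0.0711), and at most 101 in HCT116 and 76.9 in RKO by its other probe set. PCDHAC2, the other alpha C-type gene, read 13.2 to 140 in HCT116 and 6.77 to 58.2 in RKO and was too dim to be tested. Only 6 alpha genes had a probe set of their own, so which alpha gene the shared probe sets read in HCT116 was not measured for the other alpha genes.

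The gamma cluster held fewer calls than the beta cluster. The annotation gives no probe set to all gamma genes, so a reading like that of the shared alpha probe sets was not available here. PCDHGA4 read 9.84 to 231 (median 139) in HCT116 and 264 to 834 (median 452) in RKO, the only gamma probe set whose lines did not overlap. Its log2 difference was -1.96 (SE 0.331, adjusted p = 7.22e-05). PCDHGA10 (-1.05, SE 0.310, adjusted p = 0.00929) and PCDHGA3 by 216352_x_at (-0.88, SE 0.290, adjusted p = 0.0187) were lower in HCT116 too, the last against 8 HCT116 arrays under 50, and PCDHGA3 by 211879_x_at was not (0.16, 95% interval -0.68 to 1.00). PCDHGB5 was bright in both lines, at 208 to 602 in HCT116 and 159 to 709 in RKO (0.14, -0.42 to 0.71). It is an _x_at probe set.

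Of 12 gamma probe sets tested, 3 were lower in HCT116 and none was higher, with a median log2 difference of -0.39. The 3 of 12 are near the 23% of all probe sets that were lower in HCT116. The C-type gene PCDHGC3 read 8.63 to 166 in HCT116 and 88.2 to 203 in RKO by 214563_at (-0.70, SE 0.306, adjusted p = 0.0749) and 54.1 to 166 in HCT116 and 29.9 to 203 in RKO by 214564_s_at (-0.12, adjusted p = 0.823). PCDHGC4 read 26.8 to 128 in HCT116 and 6.03 to 141 in RKO by its brighter probe set (-0.07, adjusted p = 0.872), and PCDHGC5 read 4.56 to 166 in HCT116 and 5.09 to 59.3 in RKO and was not tested. The shared probe set of PCDHGC3 and PCDHGC5 stayed at or under 31.8 in HCT116 and 12.9 in RKO. The probe set shared by 7 gamma genes (PCDHGA3, PCDHGA5, PCDHGA6, PCDHGA10, PCDHGA11, PCDHGA12 and PCDHGC3) read at most 104 in HCT116 and 152 in RKO. That of PCDHGA11 and PCDHGC3 read at most 144 in HCT116 and 70.0 in RKO.

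No clustered protocadherin probe set passed the test for any drug. In HCT116, 17 members could be tested, with 0 past an adjusted p of 0.05 for 5-aza-dC, TSA or PJ-34, against 0.744%, 8.99% and 0% of all probe sets (35373 tested, limma). By direction these were 0.673% higher and 0.0707% lower with 5-aza-dC, and 4.16% higher and 4.83% lower with TSA. In RKO, 31 could be tested, with 0 past it for each drug, against 0%, 0.00591% and 0% (33862 tested; 0.00295% higher and 0.00295% lower with TSA). At an unadjusted p under 0.05 there were 1, 1 and 0 members in HCT116 and 1, 2 and 1 in RKO. Over all probe sets tested, 3762, 8476 and 1323 of 35373 were under it in HCT116, and 1759, 4158 and 895 of 33862 in RKO. The shares of the array move with single arrays: when 1 array was left out, 95 to 1606 probe sets passed for 5-aza-dC in HCT116 in place of 263, and 920 to 5475 for TSA in place of 3180, while the members stayed at 0. With no filter on signal the 58 members were all tested, and again none passed. Without both RKO arrays that went against their labels the counts in RKO stayed at 0 of 21 members, while 610 of all probe sets passed for 5-aza-dC, 5 for TSA and 0 for PJ-34.

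**Figure D3:**
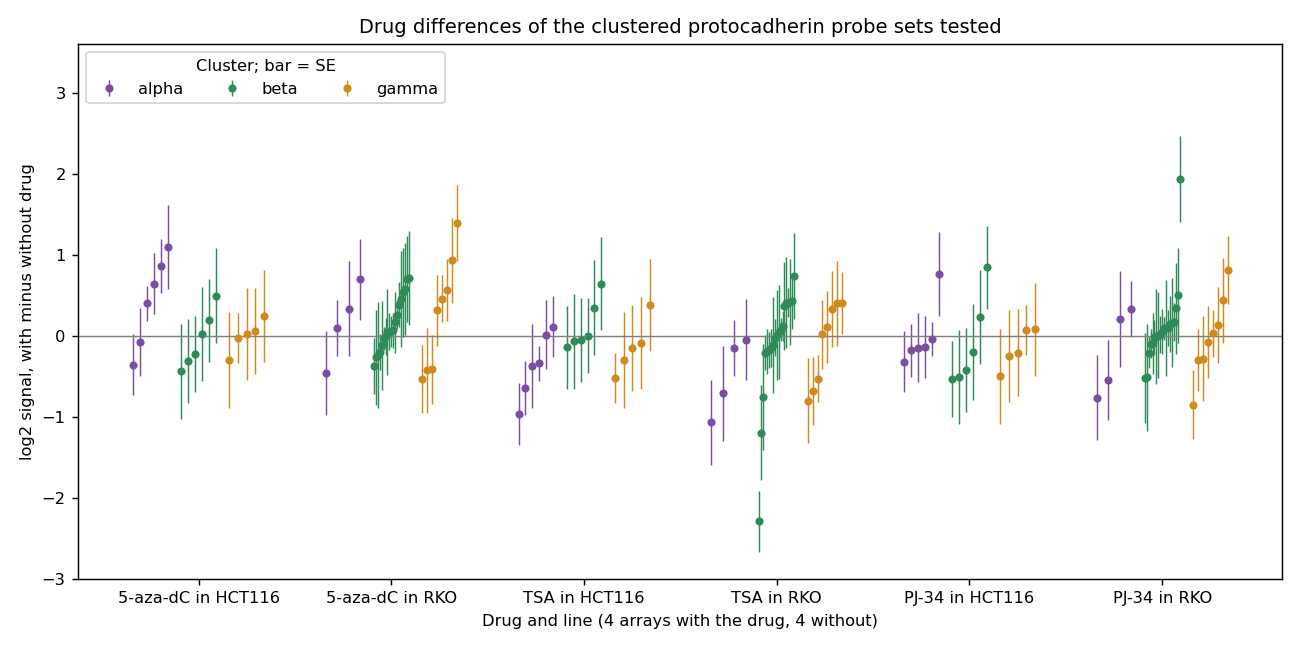
Log2 signal with minus without each drug, with its SE as a bar, for the members tested in each line (17 in HCT116, 31 in RKO), coloured by cluster. Most lie within 1 of 0, and the lowest point is PCDHB18P with TSA in RKO at -2.29.

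No beta probe set reached 250 in HCT116 with any drug. Over the 4 arrays with 5-aza-dC and the 25 beta probe sets, 25 of 100 signals were at least 100 and 0 were at least 250, against 21 and 0 of 100 on the 4 arrays without it. With TSA the counts were 19 and 0 of 100, against 27 and 0 of 100 without, and with PJ-34 20 and 0, against 26 and 0. The summed beta signal in HCT116 was 1460 to 1892 with 5-aza-dC and 1200 to 1947 without it, 1254 to 1947 with TSA and 1200 to 1892 without it. For 6 beta probe sets the difference could be tested in HCT116, with a median of -0.10 for 5-aza-dC and -0.03 for TSA.

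As a measure of the drug itself, 54 probe sets that rose with 5-aza-dC in HCT116 and were dim in the control had a median log2 signal over the control of 2.60 to 4.25 on the 4 arrays with 5-aza-dC and 0 to 0.01 on the 3 others treated. They were chosen on these arrays, so their rise is a description. PCDHB2 read 197, 61.8, 52.9 and 106 on the HCT116 arrays with 5-aza-dC alone, with PJ-34/5-aza-dC, with 5-aza-dC/TSA and with all 3, against 67.1, 30.6, 31.2 and 17.7 with PJ-34, TSA, PJ-34/TSA and in the control. The groups overlap, and PCDHB2 was too dim in HCT116 to be tested.

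Over all 58 members, 4 read higher on every HCT116 array with 5-aza-dC than on any without it, as 2.12% of all probe sets did, and 1 read lower, as 1.65% did. PCDHB15 read 129, 101, 101 and 38.7 with 5-aza-dC alone, with PJ-34/5-aza-dC, with 5-aza-dC/TSA and with all 3, against 10.0, 7.88, 25.9 and 5.54 with PJ-34, TSA, PJ-34/TSA and in the control. The gamma genes PCDHGA9 (28.1 to 161 with 5-aza-dC and at most 23.2 without) and PCDHGB7 by 1552661_at (23.9 to 85.2 with and 1.92 to 9.02 without) were the others that were dim without the drug, and all 3 had too few arrays at 100 for the test. The fourth was the shared alpha probe set 223435_s_at, at 574 to 807 with 5-aza-dC, and with a mean of 658 with it and 499.8 without. The shared probe set of PCDHA5 and PCDHA6 was the lower one, at 6.13 to 10.6 with and 10.6 to 71.1 without.

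For TSA in HCT116 no member was free of overlap, against 4.44% of all probe sets higher and 5.17% lower. For PJ-34 PCDHGC4 by 231754_at was higher (54.5 to 128 with and 26.8 to 50.5 without, against 0.829% of all) and PCDHB4 by 240317_at lower (5.79 to 20.1 with and 33.4 to 91.8 without, against 1.22%). By the labels, the RKO members without overlap were PCDHGA10, PCDHB18P and PCDHGA9. PCDHGA10 was higher with 5-aza-dC (1.77% of all, and 0.973% lower). PCDHB18P was lower with TSA (3.11% of all, and 2.46% higher). PCDHGA9 was higher on the arrays labelled with PJ-34 (1.03% of all, and 0.83% lower). Those arrays include both that went against their labels, where PCDHGA9 read 52.4 and 98.0. These genes were singled out after their values had been seen.

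The shared alpha probe sets, which were on in HCT116, had the smallest p of the members there. On the arrays with 5-aza-dC alone, with PJ-34/5-aza-dC, with 5-aza-dC/TSA and with all 3, 224212_s_at read 398, 355, 423 and 292, against 308, 136, 128 and 296 with PJ-34, TSA, PJ-34/TSA and in the control. The groups overlap, since 292 lies below 296 and 308, and the log2 difference for 5-aza-dC was 0.86 (SE 0.330, adjusted p = 0.354, limma; 4 of 4 pairs higher). The other 2 shared probe sets had log2 differences of 0.64 (95% interval -0.17 to 1.46) and 0.40 (-0.06 to 0.85) for 5-aza-dC.

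With TSA the 3 shared alpha probe sets had log2 differences below 0 in HCT116. On the arrays with TSA alone, with PJ-34/TSA, with 5-aza-dC/TSA and with all 3, 210674_s_at read 238, 94.5, 297 and 445, against 341, 412, 507 and 607 with PJ-34 alone, 5-aza-dC alone, PJ-34/5-aza-dC and in the control. The difference was -0.97 (SE 0.379, adjusted p = 0.133; 0 of 4 pairs higher), and it was -0.34 (-0.80 to 0.11) for 223435_s_at and -0.64 (-1.35 to 0.06) for 224212_s_at. None passed the adjustment. The interactions of 5-aza-dC with TSA and with PJ-34 in HCT116 had 0 calls among 17 members each, against 0% of all probe sets called in both. At an unadjusted p under 0.05 there were 3 and 1 members, against 1902 and 3298 of all 35373 probe sets tested.

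**Figure D4:**
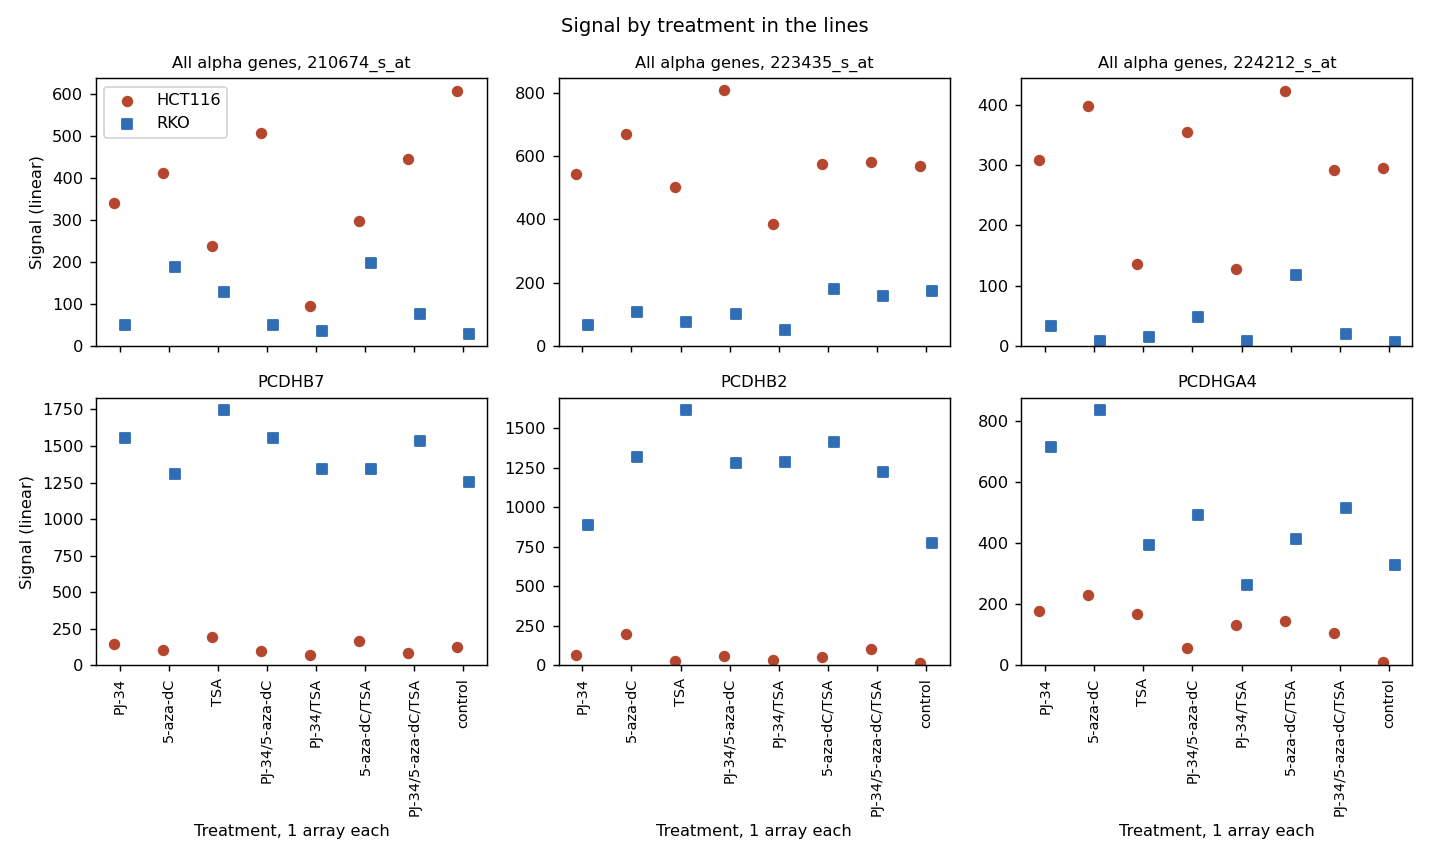
Linear signal of the 3 shared alpha probe sets, PCDHB7, PCDHB2 and PCDHGA4 by treatment, 1 array each, with HCT116 as circles and RKO as squares and the control at the right. PCDHB7 stays between 1255 and 1746 in RKO and at or under 191 in HCT116 whatever the drug.

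Of the 10 beta probe sets at 250 or more in the RKO control, 8 stayed at 250 or more on all 7 treated arrays. The exceptions were PCDHB18P and PCDHB11, which read 266 in the control and 68.7, 75.1, 62.5, 198 and 63.5 on the arrays with 5-aza-dC, TSA, PJ-34 with TSA, 5-aza-dC with TSA and all 3, and 358 and 247 on the pair that went against its labels. PCDHB7 had log2 differences of -0.03 for 5-aza-dC (95% interval -0.34 to 0.28), 0.07 for TSA (-0.23 to 0.38) and 0.09 for PJ-34 (-0.21 to 0.40), and of -0.04, 0.26 and -0.09 without both arrays that went against their labels. PCDHB2 read 1612, 1286, 1415 and 1219 on the RKO arrays with TSA alone, with PJ-34/TSA, with 5-aza-dC/TSA and with all 3, against 886, 1319, 1277 and 774 on those labelled PJ-34, 5-aza-dC and PJ-34/5-aza-dC and in the control (log2 difference 0.41, SE 0.176, adjusted p = 0.380). Without both arrays that went against their labels it was 0.58 (adjusted p = 0.503). PCDHGA4 had log2 differences of 0.46 (-0.17 to 1.09) for 5-aza-dC and -0.53 (-1.16 to 0.10) for TSA, and of 0.79 (adjusted p = 0.201) and -0.38 without both arrays.

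The pseudogene PCDHB18P, a beta copy that makes no protein, had the smallest p of any member under a drug, by the probe set 234724_x_at. It read 45.4, 77.2, 93.1 and 57.9 on the RKO arrays with TSA alone, with PJ-34/TSA, with 5-aza-dC/TSA and with all 3, against 322, 382, 304 and 319 on those labelled PJ-34, 5-aza-dC and PJ-34/5-aza-dC and in the control. The groups do not overlap. The log2 difference of -2.29 (SE 0.380) had an adjusted p of 0.0819, and it was the lowest of the 33862 probe sets tested. Its p and rank are descriptions, since the probe set reached 100 only on the arrays without TSA and entered the test through them. Without both RKO arrays that went against their labels it no longer passed the filter. The other probe set of PCDHB18P, 234479_at, read 7.03 to 90.4 in RKO and was too dim to be tested. This gene, PCDHB12 and PCDHGA10 were singled out after their values under the drugs had been seen.

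PCDHB12 read 619, 414, 274 and 633 on the RKO arrays labelled PJ-34, PJ-34/TSA, PJ-34/5-aza-dC and all 3, against 88.9, 61.7, 525 and 73.1 with 5-aza-dC, TSA, 5-aza-dC/TSA and in the control. The 525 of the array with 5-aza-dC/TSA lies among the arrays with PJ-34 (log2 difference 1.93, SE 0.530, adjusted p = 1). Without both arrays that went against their labels PCDHB12 no longer passed the filter for the drug tests. PCDHGA10 read 199, 150, 196 and 227 on the RKO arrays labelled with 5-aza-dC alone, PJ-34/5-aza-dC, 5-aza-dC/TSA and all 3, against 44.6, 16.9, 136 and 82.1 on those labelled PJ-34, TSA, PJ-34/TSA and in the control (log2 difference 1.39, SE 0.466, adjusted p = 0.882), and these groups do not overlap. Without both arrays that went against their labels it was 1.33 (adjusted p = 0.246).

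No drug effect of a member differed between the lines by the interaction term. The calls were 0 of 38 tested for 5-aza-dC, TSA and PJ-34, against 0.0309%, 0.401% and 0% of all probe sets. For TSA these were 0.157% higher and 0.245% lower in HCT116. Without both RKO arrays the calls were 0 of 31. At an unadjusted p under 0.05 there were 0, 3 and 1 members, against 3118, 5140 and 1480 of all 42119 probe sets tested. The smallest adjusted p over all arrays was that of the TSA effect on PCDHB18P, which was 2.14 higher in HCT116 than in RKO on the log2 scale (SE 0.547, adjusted p = 0.0937). In RKO its probe set reached 100 only on arrays without TSA, so this p is a description too.

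Reactivation of a silent gene was counted as a control signal under 50 and a treated signal of at least 50 and at least 5-fold higher on the same line's array. In HCT116, 32 members had a control signal under 50. The rule was passed by 6 of them with PJ-34 (21.6% of all probe sets that dim in the control), 10 with 5-aza-dC (23.1%), 7 with TSA (22.3%), 8 with PJ-34/5-aza-dC (20.1%), 5 with PJ-34/TSA (15%), 6 with 5-aza-dC/TSA (17.6%) and 6 with all 3 (18.9%). As shares of the 32 these are 15.6% to 31.3%, close to the shares of the array. In RKO, 23 members were that dim. The rule was passed by 4 on the array labelled PJ-34 (19.4% of all), 3 with 5-aza-dC (20.7%), 4 with TSA (17.5%), 3 on the array labelled PJ-34/5-aza-dC (16.8%), 2 with PJ-34/TSA (16.2%), 5 with 5-aza-dC/TSA (19.1%) and 3 with all 3 (26.9%), or 8.70% to 21.7% of the 23. No signal so counted reached 250, with highest values of 232 in HCT116 (PCDHGA3 with TSA) and 206 in RKO (PCDHB4 with 5-aza-dC/TSA).

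In HCT116, 3 members passed on 4 or more arrays, and the 2 that passed on the most did so with every treatment. In HCT116 PCDHGA4 and the probe set shared by PCDHB9 and PCDHB10 passed on all 7 treated arrays, with control signals of 9.84 and 8.56 that were the lowest of the 8 arrays. They were the 2 members past the rule on all 4 arrays with 5-aza-dC, and likewise with TSA and with PJ-34. In RKO no member passed on all 4 arrays of a drug. PCDHB3 by 244183_x_at passed on 5 RKO arrays and the gamma gene PCDHGB6 on 4.

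Other genes of the locus and of related function were read from lists. For their counts between the lines, the shares of all probe sets tested were 21.3% higher and 23% lower in HCT116. Of the 15 genes that flank the clusters, 14 had a median signal of at least 100 in HCT116 and 15 in RKO, and 3 of 15 were higher and 6 lower in HCT116 than in RKO, with a median log2 difference of -0.15. TAF7, a subunit of a general transcription factor whose gene lies between the beta and gamma clusters, read 6111 to 7262 in HCT116 and 7754 to 11287 in RKO (-0.51, adjusted p = 1.82e-05). With TSA in HCT116, 4 of 14 flanking genes rose and none fell (HARS1, HARS2, DIAPH1 and IK, log2 differences 0.37 to 0.48), against 4.16% and 4.83% of all probe sets. With 5-aza-dC 0 of 14 passed, against 0.744%.

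Protocadherins outside the clusters and the large FAT and DCHS cadherins had 4 of 11 genes higher and 1 lower in HCT116, against 21.3% and 23% of all probe sets. PCDH7 read 7217 to 28058 in HCT116 and 4.26 to 63.2 in RKO (log2 difference 8.10, SE 0.134, adjusted p = 1.66e-18), and FAT1, a very large cadherin, read 31144 to 37797 in HCT116 and 2510 to 3814 in RKO (3.42, SE 0.0665). PCDH18 read 14.5 to 136 in HCT116 and 209.6 to 320.4 in RKO (-1.75, adjusted p = 2.75e-05). PCDH7 fell with 5-aza-dC (-0.75, adjusted p = 0.0343) and with TSA (-0.82, adjusted p = 0.00562) in HCT116.

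CTCF and the cohesin genes, whose proteins shape the loops at these promoters, were bright in both lines. CTCF itself read 4272 to 7278 in HCT116 and 6367 to 7849 in RKO (-0.17, adjusted p = 0.0483), and of the 13 genes 3 were higher and 7 lower in HCT116. Among 17 silencing factors 7 were higher and 4 lower in HCT116. DNMT3B, a methyltransferase that sets new methylation, read 1427 to 1964 in HCT116 and 644 to 1109 in RKO (0.87, adjusted p = 3.42e-06). UHRF1, which guides maintenance methylation, read 5475 to 9049 in HCT116 and 10431 to 15889 in RKO (-0.82, adjusted p = 1.37e-07). Genes for processing and signalling partners had 1 higher and 5 lower of 13. Of the marker lists, 8 of 11 colon epithelium genes, 2 of 10 neuron genes, 3 of 9 fibroblast genes and 2 of 4 blood genes were higher in HCT116, and 0, 0, 0 and 1 were lower. All these counts stand against 21.3% higher and 23% lower of all probe sets, and the share of neuron genes higher is near it. Genes of these lists differ between the lines together with the beta cluster, and their part in that difference was not tested.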

How the data were processed

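The deposited values were used as they stood: the authors' signal intensity per probe set, computed in GCOS, of which no version is stated, with a scaling per array, no log and no detection calls. Arrays were assigned to lines and treatments by their titles. Gene names came from the platform annotation, in which 41097 probe sets have 1 symbol, 1801 have several and 11777 have none.

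Values below 50 were raised to 50 before the log2 step. A probe set entered a fit if 4 or more of its arrays read 100 or more, with control probe sets of the array left out. Fits used limma 3.58.1 in R 4.3.3: a term per drug within a line, and line, drugs and their products over all 16 arrays, with variance moderated along a trend and p adjusted by Benjamini-Hochberg over all probe sets fitted. The fit was tested on simulated data. Only residual spread over treatments was available, since no condition was repeated, and the number of arrays limits the precision. The rule for named members took up to 12 past the adjusted p of 0.05 in a comparison, up to 4 of the brightest single-gene probe sets of a cluster, the shared probe sets, the C-type genes, members past the reactivation rule and up to 4 genes of a list by p for 5-aza-dC or TSA in HCT116. Further line calls, list genes named for the difference between the lines, and the promoter runs were chosen after their values or letters had been seen. The members, lists and tests were chosen with earlier results of these data known. Promoter sequences came from RefSeq (GRCh38.p14).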

Additional observations from a re-analysis of the deposited data

Results flagged for a closer look

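On the log2 scale, 5 values stood apart from the other 7 arrays of their line. They came from 48 groups of 8 arrays (21 member probe sets and the summed signals of the 3 clusters in both lines). A value was flagged when its gap to the nearest passed 0.526 of the whole range. Where the other 7 arrays lie at the floor of 50, the gap is 1 however small the rise, so no rate by chance is given. PCDHB13 by 232415_at read 149 on the HCT116 array with 5-aza-dC alone, against at most 54.5 on the other HCT116 arrays, a gap of 0.922 of the whole range. PCDHGA10 read 140 on the HCT116 array with 5-aza-dC/TSA and under the floor of 50 on the other 7 (gap 1). PCDHB3 by 221410_x_at read 94.7 on the HCT116 array with TSA alone, and the nearest was 62.8 (gap 0.643). PCDHB6 by 221317_x_at read 68.8 in the HCT116 control, and the nearest was 50.2 (gap 0.988). In RKO the shared alpha probe set 224212_s_at read 118 on the array with 5-aza-dC/TSA and under 50 on the others (gap 1). All 5 lie under a signal of 150, where most arrays of the line are at the floor. No cause was tested.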

How the results depend on the processing

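The count of 21 members differing between the lines was 13 without probe sets ending in _x_at (an alternative chosen after seeing the data) and 15 to 22 under the other settings run on all arrays: other floors, filters, quantile normalization, log2 of signal plus 50, no variance trend. Without 1 array in turn it ran from 16 to 21, with 16 when the RKO array labelled PJ-34 was left out, and it was 16 without both RKO arrays that went against their labels. No called log2 difference changed sign. In RKO the uncalled differences of PCDHB7 lie near 0 and did: -0.0935 for PJ-34 without both arrays, -0.13 to 0.10 for 5-aza-dC and -0.061 to 0.176 for TSA when 1 array was left out. PCDHB6 lost its call in 2 of 18 settings and PCDHGA3 in 1 of 18. The count of members whose TSA effect differed between the lines was 0 and became 1 (PCDHB18P) with a floor of 100, and ranged from 0 to 1 when 1 array was left out, with 1 once the PJ-34/5-aza-dC array of HCT116 was dropped. The members' counts for each drug in each line and for both interactions were 0 under every setting run, while over all probe sets leaving out 1 array gave 0 to 62 calls for 5-aza-dC and 0 to 75 for TSA in RKO (0 and 2 with all arrays) and 0 to 472 for the interaction of 5-aza-dC and PJ-34 in HCT116 (0 with all). Without both RKO arrays 610 probe sets passed for 5-aza-dC in RKO. No paired analysis was possible because every array carries the same replicate number, so the groups share fewer than 2; arrays matched by the other drugs are counted as pairs in the text, and the fit holds a term for each of those drugs. Low signals limit the drug tests: 41 of 58 members in HCT116 and 27 in RKO were too dim to be tested.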
